A study of Homo sapiens with 8 samples.

Results

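The genes described here are 32 targets and components of the amino acid response and the unfolded protein response, taken as a list of ATF4-linked and endoplasmic reticulum stress genes, among 18417 genes with a probe set of their own on the array. Each gene was represented by the single-gene probe set with the highest mean log2 intensity over the 8 arrays. All 32 were measured, and 31 passed the filter on low values that set the 11050 genes tested. PHGDH, the first enzyme of serine synthesis from glycolytic carbon, lay below the filter with intensities between 43.0 and 84.9, and is left out of every count. For counting, the 15 tested genes of the ATF4 branch (transcription factors, amino acid enzymes and other ATF4 targets) were kept apart from the 16 of the endoplasmic reticulum branch (factors, chaperones and degradation genes).

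The cells were 786-O, a clear cell renal carcinoma line that lacks functional VHL, the protein that marks the hypoxia-inducible factors for degradation. Parental 786-O cells and CRISPR-made HIF2a null 786-O cells received DMSO, the solvent, or PT2399, a small molecule that blocks the binding of HIF2a to ARNT, its partner on DNA. The dose was 2 uM and the exposure 24 h or 48 h, with 1 array for each of the 8 combinations of cells, treatment and time. The 4 groups with 2 arrays each were therefore parental cells in DMSO, parental cells in PT2399, null cells in DMSO and null cells in PT2399, all grown in DMEM with serum. Parental and null cells were handled as independent experiments, so that in a direct comparison of the cells the genotype cannot be told apart from the experiment. The number of clones behind the null cells was not given in the sources used here. Since no condition was repeated, each treatment effect was read from a 24 h and a 48 h pair. In the fit over all 8 arrays both genotypes share 1 estimate of spread for each gene. A p-value for 1 genotype there also holds the spread between the pairs of the other. The median standard error (SE) for PT2399 in parental cells was 0.27 in that fit and 0.14 on the parental arrays alone.

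The amino acid response and the unfolded protein response meet at the translation factor eIF2. Several kinases phosphorylate it, among them GCN2 when amino acids run short and PERK when unfolded proteins collect in the endoplasmic reticulum. General translation then slows while the mRNA of the transcription factor ATF4 is translated better, and ATF4 switches on genes for amino acid synthesis, amino acid uptake and tRNA charging, together with the stress factors DDIT3 (CHOP), ATF3 and TRIB3. The reticulum has a pair of further sensors, IRE1, which splices the mRNA of XBP1, and ATF6, and the factors they release switch on chaperones such as BiP (HSPA5) and the machinery that removes misfolded proteins. Levels of mRNA on an array do not show eIF2 phosphorylation, ATF4 protein or XBP1 splicing.

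On the arrays themselves, mean intensity lay between 437 and 463 and median intensity between 99.4 and 133.8, the highest median being that of parental cells after 24 h of PT2399. EPAS1, which encodes HIF2a, had intensities from 1010 to 1519 on the parental arrays and from 585 to 722 on the null arrays. Transcripts of an edited gene may persist, so that these levels are a partial check of the labels. The null 48 h PT2399 array stood apart, with correlations of 0.777 to 0.831 with the other null arrays, against 0.940 to 0.983 among those, and results that rest on it are given with and without it. All 6 markers of a renal epithelial line (PAX8, PAX2, KRT8, KRT18, VIM and CDH6) were above the filter, and 0 of 5 endothelial markers were. Of 5 measured leukocyte markers only CD68, which many cell types express, was above it. The summed leukocyte marker intensity was 1179 to 1569 in parental and 849 to 1073 in null arrays. Most of that sum was CD68, at 936 to 1252 in parental and 672 to 940 in null arrays. The part of these markers in the differences between the cells was not tested.

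Promoter letters are shown first. The rule for the list did not use them, but it chose ATF4-linked and endoplasmic reticulum stress genes. Matches to the elements of these responses are therefore not independent of the choice of genes. RefSeq promoter windows of 300 bases (250 before and 50 after the start, GRCh38.p14) were held for 30 of the 32 genes, PSPH and SHMT2 being the others, and both strands were searched. The 30 genes had 41 windows, and a gene was counted if any of its windows matched. The shares of all windows count single windows, so the counts of genes and these shares are not in the same unit. TGATGNAA, the core of the C/EBP-ATF response element at which ATF4 binds with a C/EBP partner, was found in 5 of the 30 genes (3 of the ATF4 branch and 2 of the endoplasmic reticulum branch) and in 3.62% of all 35116 windows. ATF3, ASNS, CHAC1 and HERPUD1 held it upstream of the start and CREB3L2 downstream. Below, capitals mark the match, in the direction of the gene, so that a match on the other strand reads as its reverse complement. ATF3 (chr1:212565190-212565249, plus strand), ASNS (chr7:97872458-97872487, minus strand), CHAC1 (chr15:40953236-40953295, plus strand) and HERPUD1 (chr16:56931940-56931999, plus strand) read as follows.
ATF3: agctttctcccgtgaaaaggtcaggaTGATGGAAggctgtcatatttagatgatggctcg
ASNS: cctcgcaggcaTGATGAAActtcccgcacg
CHAC1: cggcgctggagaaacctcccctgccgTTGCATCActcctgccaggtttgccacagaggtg
HERPUD1: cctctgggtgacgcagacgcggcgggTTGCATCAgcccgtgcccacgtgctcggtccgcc

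The endoplasmic reticulum stress response element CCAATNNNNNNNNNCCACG, the site of NF-Y and ATF6, was found in 6 of the 30 genes and in 0.0769% of all windows. All 6 belonged to the endoplasmic reticulum branch: XBP1, HSPA5, HSP90B1, CALR, PDIA6 and CRELD2. These 4 examples are XBP1 (chr22:28800582-28800641, minus strand), HSPA5 (chr9:125241370-125241429, minus strand), HSP90B1 (chr12:103930196-103930255, plus strand) and CRELD2 (chr22:49918534-49918593, plus strand), the last with the match on the other strand.
XBP1: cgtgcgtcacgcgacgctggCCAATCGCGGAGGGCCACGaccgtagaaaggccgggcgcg
HSPA5: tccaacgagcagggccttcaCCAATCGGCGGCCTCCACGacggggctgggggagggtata
HSP90B1: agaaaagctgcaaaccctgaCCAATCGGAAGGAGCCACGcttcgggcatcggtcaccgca
CRELD2: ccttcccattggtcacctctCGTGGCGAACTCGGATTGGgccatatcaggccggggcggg

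TGACGTGG, a binding site of XBP1 and ATF6, was found in HYOU1 alone among the 30 and in 0.729% of windows. ACGTG, the core of the HIF binding site, was found in 10 of the 30 genes (2 of the ATF4 branch and 8 of the endoplasmic reticulum branch) and in 21.4% of windows; it lies within TGACGTGG. A match describes the letters only. It does not show that a factor binds there.

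The clearest pattern in the 32 genes lay between the null and the parental cells, and it was carried by the ATF4 branch. In DMSO all 15 tested ATF4-branch genes had a higher mean level in null cells, where 36.1% of all genes did. Of the 15, 12 were higher at both times, where 21.8% of all genes were. The median log2 difference of the 15 (null minus parental) was 0.81 at 24 h and 1.29 at 48 h. The 16 genes of the endoplasmic reticulum branch had medians of -0.19 and 0.10, and all 11050 genes -0.20 and -0.13. Of the 31 tested genes, 9 were at least 1.5-fold higher in null cells at both times and 0 were at least 1.5-fold lower, where 5.80% and 11.6% of all genes were. The 9 were CHAC1, CTH, DDIT3, CEBPB, SESN2, ATF3, PSAT1, MTHFD2 and XBP1, of which ATF3 passed the filter only through its null arrays. These differences are descriptions with no test, because the experiments were separate, and in bulk cultures a difference in all cells and a difference in a share of the cells cannot be told apart.

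**Figure D1:**
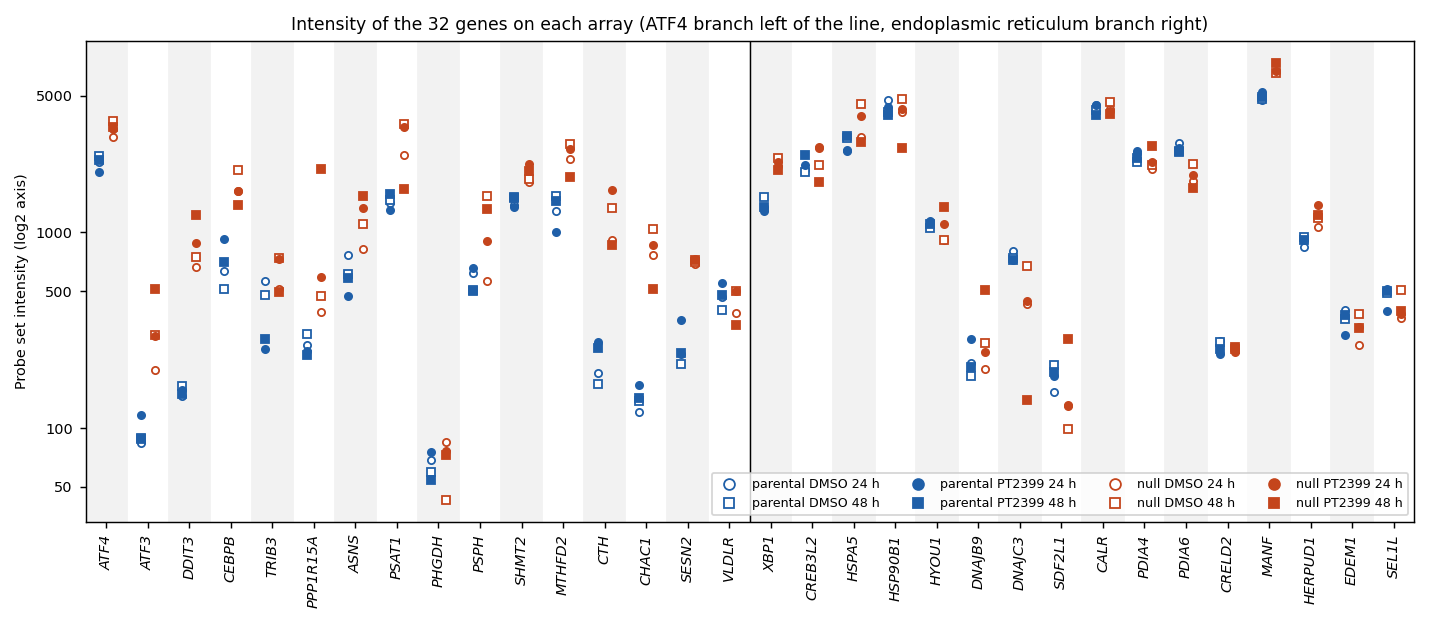
Probe set intensity (log2 axis) of the 32 genes on each of the 8 arrays, with the ATF4 branch left of the line and the endoplasmic reticulum branch right; colour gives the genotype and the symbol the treatment and time. Null and parental symbols separate for most ATF4-branch genes, such as DDIT3 (146 to 165 against 667 to 1231), and mix for most of the other branch, such as CALR.

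Among the transcription factors, ATF4 itself differed least of those that separated the cells. Its intensity was 2285 and 2455 in parental DMSO cells at 24 h and 48 h, 2031 and 2345 in parental PT2399 cells, 3062 and 3718 in null DMSO cells and 3379 and 3478 in null PT2399 cells. All 4 null arrays were above all 4 parental arrays, by 0.42 and 0.60 on the log2 scale in DMSO, or 1.42-fold on average. This direction depends on the probe set. The other single-gene probe set of ATF4 read 826, 967, 859 and 835 on the parental arrays in the same order, and 182, 171, 218 and 167 on the null arrays. There the null level was lower in DMSO by log2 differences of -2.18 and -2.50. RefSeq names 4 ATF4 pseudogenes, and the positions of the probes were not given in the sources used here. No direction is therefore stated for ATF4 mRNA as a whole; the counts use the probe set with the higher mean, and by the other one ATF4 would leave the genes that were higher.

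**Figure D2:**
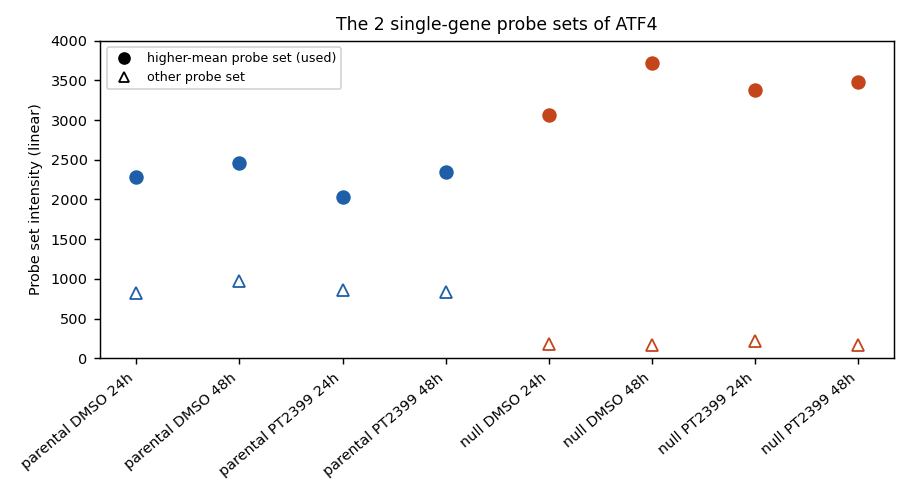
Linear intensity of both single-gene probe sets of ATF4 on the 8 arrays. The set with the higher mean is higher on the 4 null arrays (3062 to 3718) than on the parental arrays (2031 to 2455), while the other is lower (167 to 218 against 826 to 967).

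DDIT3 encodes CHOP, the factor that promotes death under lasting reticulum stress. Its intensity was 146 and 165 in parental DMSO cells, 156 and 149 in parental PT2399 cells, 667 and 748 in null DMSO cells and 878 and 1231 in null PT2399 cells. The parental arrays lay within a narrow band and every null array was at least 4 times the highest of them; in DMSO the null level was 4.55-fold that of parental cells, with log2 differences of 2.19 and 2.18. ATF3, a stress-induced repressor that dimerises with ATF and C/EBP factors, read 83.7, 88.6, 117 and 87.7 on the parental arrays in the same order and 198, 300.2, 295 and 512 on the null arrays. All 4 parental values of ATF3 lay below an intensity of 118, the level that the filter asked of a gene's mean. ATF3 thus passed only through its null arrays, and its count as higher in null cells is not independent of the filter. Its null DMSO level was higher by 1.24 at 24 h and 1.76 at 48 h.

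CEBPB, a C/EBP factor that is both a target and a partner of ATF4, read 634 and 513 in parental DMSO cells, 920 and 702 in parental PT2399 cells, 1633 and 2085 in null DMSO cells and 1623 and 1388 in null PT2399 cells. The groups did not overlap, and the DMSO difference was 1.37 and 2.02, or 3.23-fold. PPP1R15A encodes GADD34, which brings a phosphatase to eIF2 and ends the response. It read 265, 303, 249 and 236 on the parental arrays and 392, 473, 593 and 2120 on the null arrays, the last on the array that stood apart. TRIB3, a pseudokinase induced by ATF4 and CHOP that restrains ATF4, was the factor whose groups overlapped. It read 564 and 481 in parental DMSO cells, 254 and 286 in parental PT2399 cells, 511 and 736 in null DMSO cells and 734 and 498 in null PT2399 cells.

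The 2 largest differences in DMSO were those of enzymes of amino acid and glutathione metabolism. CHAC1, which degrades glutathione and is a CHOP and ATF4 target, read 120.3, 138, 166 and 143 on the parental arrays and 764, 1044, 864 and 511 on the null arrays. The null DMSO level was 6.95-fold the parental level, with log2 differences of 2.67 and 2.92. CTH, cystathionine gamma-lyase, which makes cysteine from cystathionine, read 190.1, 168, 276 and 256 on the parental arrays and 914, 1332, 1644 and 867 on the null arrays, a difference of 2.27 and 2.98 in DMSO, or 6.17-fold. For both genes the lowest null array was over 3 times the highest parental array.

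ASNS, asparagine synthetase, differed less. Its intensity was 762 and 612 in parental DMSO cells, 471 and 587 in parental PT2399 cells, 823 and 1106 in null DMSO cells and 1328 and 1533 in null PT2399 cells. The groups did not overlap, although the DMSO arrays at 24 h were close, at 762 against 823. RefSeq names 5 ASNS pseudogenes.

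In the serine and one-carbon route, PSAT1, the aminotransferase of serine synthesis, read 1420, 1470, 1309 and 1575 on the parental arrays and 2485, 3605, 3443 and 1662 on the null arrays. MTHFD2, a mitochondrial folate enzyme, read 1280, 1538, 999 and 1444 on the parental arrays and 2371, 2843, 2683 and 1919 on the null arrays. In both the lowest null value was that of the 48 h PT2399 array, and it was still above every parental array. The DMSO differences were 0.81 and 1.29 for PSAT1, and 0.89 at both times for MTHFD2. A second MTHFD2 probe set gave differences of 0.80 and 1.28. SHMT2, the mitochondrial serine hydroxymethyltransferase, lay between 1342 and 1517 on the parental and between 1808 and 2236 on the null arrays. PSPH, the last enzyme of serine synthesis, overlapped, at 618, 507, 659 and 502 on the parental arrays and 564, 1534, 904 and 1319 on the null arrays. RefSeq names 4 pseudogenes of PSAT1, 7 of MTHFD2 and 1 of PSPH, each of which could add signal to a probe set.

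Of the remaining ATF4 targets, SESN2, which signals amino acid shortage to mTORC1, read 238, 214, 358 and 243 on the parental arrays and 693, 705, 735 and 721 on the null arrays. The null values were nearly level over treatment and time, and the DMSO difference was 1.54 and 1.72, or 3.10-fold. VLDLR, a lipoprotein receptor, overlapped, with 402 to 554 on the parental and 338 to 503 on the null arrays.

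XBP1 was the only gene of the endoplasmic reticulum branch that was at least 1.5-fold higher in null cells at both times. It encodes the factor that IRE1 activates by splicing, and the array total does not separate spliced from unspliced mRNA. It read 1355, 1514, 1281 and 1352 on the parental arrays and 2175, 2401, 2301 and 2082 on the null arrays, a DMSO difference of 0.68 and 0.67. RefSeq names 1 XBP1 pseudogene. CREB3L2, a membrane-bound factor cut in the Golgi like ATF6, overlapped, at 2049 to 2502 on the parental and 1815 to 2732 on the null arrays.

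The chaperones mostly overlapped. HSPA5, the BiP chaperone and the usual marker of the response, read 2627, 3044, 2614 and 3123 on the parental arrays and 3091, 4545, 3942 and 2894 on the null arrays. MANF, a secreted stress protein, was higher in null cells, at 6508 to 7387 against 4762 to 5237. HSP90B1, the reticulum HSP90, lay between 3998 and 4754 on the parental and between 2700 and 4792 on the null arrays, and calreticulin (CALR) between 4001 and 4484 and between 4053 and 4637. HYOU1, a large chaperone that acts with BiP, lay between 1053 and 1146 against 916 and 1352, and the disulfide isomerase PDIA4 between 2297 and 2594 against 2119 and 2777. Their neighbours in the list overlapped too, with DNAJB9 at 184 to 286 against 201 to 508, SDF2L1 at 153 to 210.4 against 98.8 to 285 and CRELD2 at 239 to 279 against 245 to 258. DNAJC3, a BiP co-chaperone, and PDIA6, a disulfide isomerase, were lower on every null array. DNAJC3 read 804, 744, 722 and 724 on the parental arrays and 433, 676, 448 and 139 on the null arrays. PDIA6 lay between 2580 and 2872 on the parental and between 1691 and 2236 on the null arrays. In DMSO 4 of the 11 chaperones had a higher mean and 7 a lower mean in null cells. Of all genes, 36.1% had a higher and 63.9% a lower mean. The chaperone median was -0.14, where that of all genes was -0.17. At both times 0 chaperones were at least 1.5-fold higher or lower, where 5.80% and 11.6% of all genes were.

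Among the degradation genes, HERPUD1, a membrane component of the ubiquitin ligase complex that clears misfolded proteins, read 845, 950.1, 915 and 920 on the parental arrays and 1072, 1189, 1374 and 1235 on the null arrays. Its null arrays were all higher, by 0.34 and 0.32 in DMSO. EDEM1 (298 to 401 parental, 266 to 383 null) and SEL1L (395 to 515 parental, 367 to 510 null) overlapped.

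**Figure D3:**
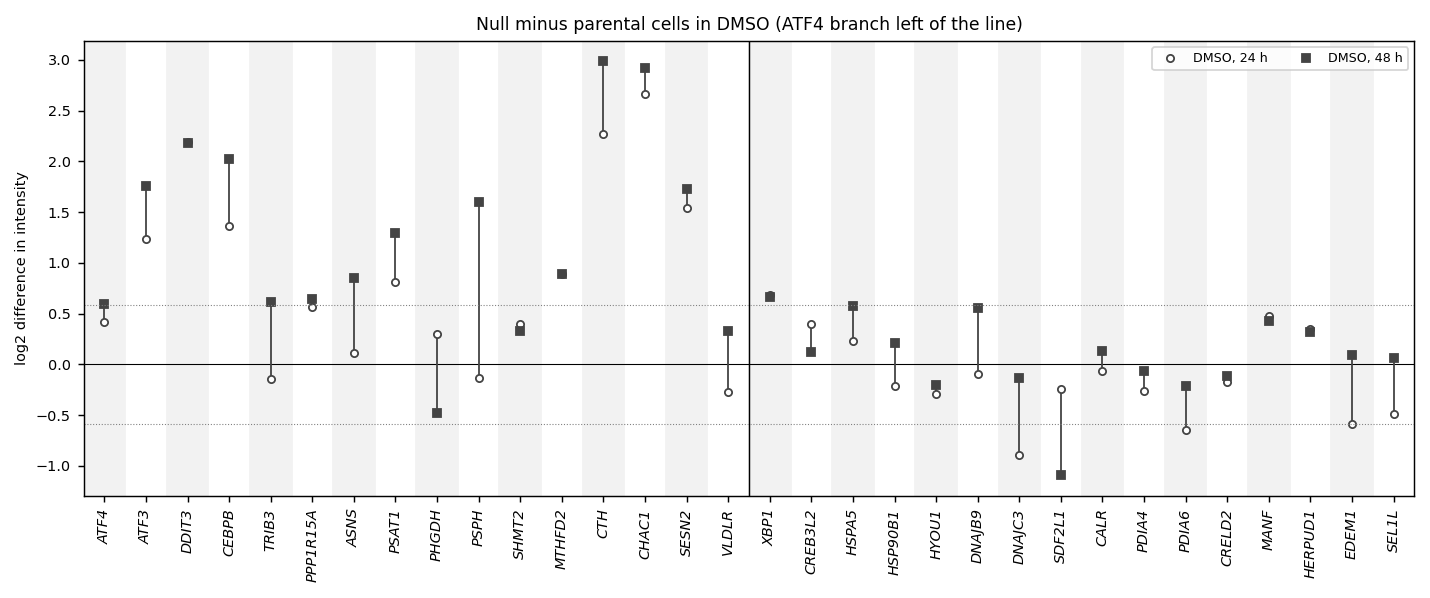
Log2 difference between null and parental cells in DMSO for each gene, at 24 h and at 48 h, with the 32 genes in order of role. CHAC1 (2.67 and 2.92), CTH (2.27 and 2.98) and DDIT3 (2.19 and 2.18) lie highest, and the chaperones scatter about 0.

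Counted over all 8 arrays, a count added after the values had been seen, 15 of the 31 tested genes had every null array above every parental array, where 8.83% of all genes did. They were 12 of the 15 genes of the ATF4 branch (all but TRIB3, PSPH and VLDLR) and 3 of the 16 of the other (XBP1, MANF and HERPUD1). Among the 12, ATF3 passed the filter only through its null arrays. Only 2 genes, DNAJC3 and PDIA6, had every null array below, where 22.0% of all genes did. Without the null 48 h PT2399 array the same 15 were above and 3 below, SDF2L1 having joined. Of all 11050 genes, 1422 were then above and 3472 below, since fewer arrays have to separate. Of the 5 genes with TGATGNAA, ATF3, ASNS, CHAC1 and HERPUD1 were among the 15 and CREB3L2 overlapped; 9 of the 12 ATF4-branch genes among the 15 had no match or no window. Of the 6 genes with the reticulum stress element, XBP1 was above, PDIA6 below and the other 4 overlapped.

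The wider pathway was read from 103 further genes, of which 96 were measured and 89 passed the filter. In DMSO 8 of the 89 were at least 1.5-fold higher and 3 at least 1.5-fold lower in null cells at both times, beside the 5.80% and 11.6% of all genes. Their median difference was -0.02. The other ATF4 partners and targets were the list with the most higher genes, 5 of 11, with a median of 0.78. GDF15, a stress-induced secreted cytokine, read 213, 134, 471 and 221 on the parental arrays and 2091, 2393, 2204 and 3021 on the null arrays, 13.2-fold higher in null DMSO cells. NUPR1, a small stress-induced nuclear protein, read 298 to 476 on the parental and 1187 to 1698 on the null arrays. STC2, a secreted glycoprotein, was 3.08-fold higher. BBC3 read 111 and 110 in parental DMSO cells and 359 and 194 in null DMSO cells. CEBPG, a C/EBP partner of ATF4, was higher by 0.79 and 1.10.

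Of 13 cytosolic tRNA synthetases, 12 had a higher mean in null DMSO cells, where 36.1% of all genes did, with a median of 0.34, but only CARS1, the cysteinyl-tRNA synthetase, was at least 1.5-fold higher at both times (0.67 and 2.31). Of 10 amino acid transporters, only SLC7A11, the cystine importer, was (0.64 and 1.62), with a list median of 0.13. None of the 6 further enzymes of amino acid synthesis was, and their median was -0.27. Of 24 reticulum degradation and transport genes, 21 had a lower mean and 19 were lower at both times, where 63.9% and 45.8% of all genes were, and the median was -0.39. Of 9 folding genes 8 had a lower mean, and the median was -0.26. All tested genes had a median of -0.17. ERLEC1, a lectin that recognises misfolded glycoproteins, read 2174 to 2239 on the parental and 192 to 557 on the null arrays.

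The sensors differed in direction. EIF2AK3, which encodes PERK, read 899, 886, 888 and 894 on the parental arrays and 221, 234, 189 and 173 on the null arrays, a null DMSO level 3.92-fold lower. ERN1, which encodes IRE1, read 137, 134, 165 and 161 on the parental arrays and 399, 299, 313 and 426 on the null arrays, 2.55-fold higher in null DMSO cells. Across the 16 sensors and eIF2 regulators the median was -0.04, with ERN1 the only one at least 1.5-fold higher and EIF2AK3 the only one at least 1.5-fold lower at both times.

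**Figure D4:**
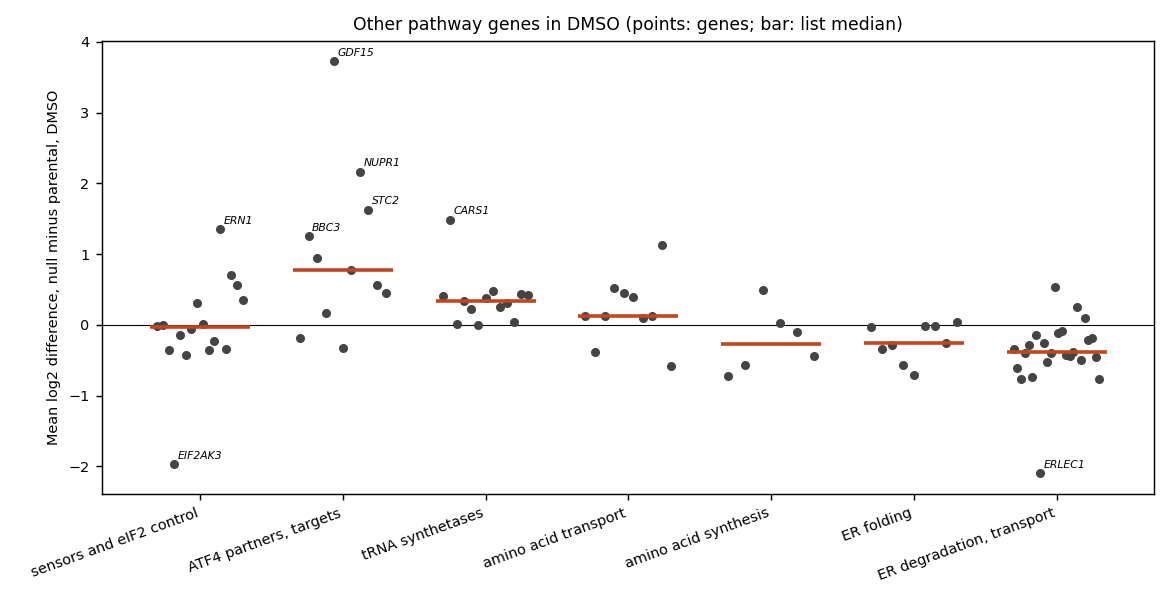
Mean log2 difference between null and parental cells in DMSO for the 89 further pathway genes, by list, with a bar at each list's median. The ATF4 partners and targets have the highest median (0.78) and the reticulum degradation and transport genes the lowest (-0.39).

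Few of the 32 genes differed with PT2399 in parental cells, which hold HIF2a. By limma with Benjamini-Hochberg adjustment, 0 of the 31 tested genes passed a threshold of 0.05, as did 0% of all genes. At an unadjusted p under 0.05 there was 1, TRIB3, where 1.18% of all genes were. In the limma fit on the parental arrays alone, 0 of the 31 and 4 of all 11050 genes passed the adjusted threshold. Its unadjusted p was under 0.05 for 3 of the 31 (TRIB3, CTH and CEBPB) and for 865 of all 11050. At least 1.5-fold higher at both times were 0 genes of the 31 and 0.362% of all genes, and at least 1.5-fold lower were 1 gene, again TRIB3, and 0.624% of all genes. The median PT2399 difference was -0.01 at each time, with 15 genes higher and 16 lower on average. When each array was instead centred on its own median, the median of all genes moved by -0.12, and 8 of the 31 genes were higher and 23 lower.

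In parental cells TRIB3 read 564 in DMSO and 254 in PT2399 at 24 h, and 481 and 286 at 48 h, so that both PT2399 arrays were below both DMSO arrays. The PT2399 difference was -1.15 and -0.75, a mean of -0.95 (SE 0.33, 2 pairs; limma unadjusted p = 0.0288, adjusted p = 1.0), or 1.93-fold lower. In a limma fit on the parental arrays alone its SE was 0.16, its unadjusted p 0.00116 and its adjusted p 0.195.

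CTH and CEBPB had higher values with PT2399 in both parental pairs, as did 30.7% of all genes. CTH went from 190.1 to 276 and from 168 to 256, a mean difference of 0.57 (SE 0.38), or 1.49-fold, and CEBPB from 634 to 920 and from 513 to 702, a mean of 0.49 (SE 0.26), or 1.41-fold. Neither passed the test in the model over all arrays (limma unadjusted p = 0.185 for CTH and 0.103 for CEBPB). In the limma fit on the parental arrays alone the unadjusted p was 0.00592 for CTH and 0.0112 for CEBPB, and the adjusted p was 0.464 and 0.557. In parental cells the PT2399 arrays of both genes lay above the DMSO arrays without overlap. ASNS was lower at 24 h (762 to 471, a difference of -0.70) and close at 48 h (612 to 587, a difference of -0.06), so that the pairs differ in size.

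Of the 89 further genes, 2 were at least 1.5-fold higher and 3 at least 1.5-fold lower with PT2399 at both times in parental cells. The higher ones were GDF15 (1.14 and 0.72) and KLHL24 (0.85 and 0.63). The lower ones were DDIT4, an mTORC1 inhibitor that is both a hypoxia and an ATF4 target (-1.13 and -1.31), and both chains of the large neutral amino acid transporter. SLC7A5, its transport chain, went from 2557 to 872 and from 3012 to 1577, and SLC3A2, its heavy chain, from 1848 to 1145 and from 2212 to 1443. Of 10 amino acid transporters 8 had a lower mean with PT2399, and of 13 tRNA synthetases 12 had, where 45.3% of all genes did. In 7 of the synthetases both pairs were lower, where they were in 27.1% of all genes, and in none was the difference 1.5-fold at both times. The centring that moved the median of all genes by -0.12 bears on these counts too.

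In null cells, which should lack the target of PT2399, 0 of the 31 genes passed the adjusted limma threshold (0% of all genes) and 2 had an unadjusted p under 0.05, ATF3 and PPP1R15A, where 4.35% of all genes did. At least 1.5-fold higher at both times was 1 gene, PPP1R15A, where 0.172% of all genes were, and at least 1.5-fold lower were 0, where 0.525% were. PPP1R15A read 392 in DMSO and 593 in PT2399 at 24 h, and 473 and 2120 at 48 h, differences of 0.60 and 2.16 with a mean of 1.38 (SE 0.40; limma unadjusted p = 0.0143, adjusted p = 0.608). ATF3 went from 198 to 295 and from 300.2 to 512, a mean of 0.67 (SE 0.25; limma unadjusted p = 0.0370, adjusted p = 0.608). Without the null 48 h pair ATF3 stood at 0.58 and PPP1R15A at 0.60. The spread of that fit comes from the parental pairs alone, so that no p is given. DDIT3 went from 667 to 878 and from 748 to 1231, a mean of 0.56 (SE 0.24). ASNS went from 823 to 1328 and from 1106 to 1533, a mean of 0.58 (SE 0.26). In the fit over all arrays neither had an unadjusted limma p under 0.05. Without the null 48 h pair DDIT3 stood at 0.40 and ASNS at 0.69.

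The null pairs differed from each other. At 24 h alone, without the array that stood apart, 27 of the 31 genes (87.1%) were higher with PT2399, where 56.8% of all genes were, with a median of 0.18 over the 31, 0.40 over the ATF4 branch, 0.07 over the other and 0.03 over all genes. In that pair 4 genes were at least 1.5-fold higher (PPP1R15A, ASNS, PSPH and CTH), where 0.796% of all genes were, and 0 were at least 1.5-fold lower, where 1.29% were. At 48 h 12 of the 31 differed by at least 1.5-fold, 5 higher and 7 lower, but 51.0% of all genes did. The higher genes were ATF3, DDIT3, PPP1R15A, DNAJB9 and SDF2L1 and the lower CEBPB, PSAT1, CTH, CHAC1, HSPA5, HSP90B1 and DNAJC3. DNAJC3 stood at -2.28 and SDF2L1, a stress-induced partner of BiP co-chaperones, at 1.53 in that pair. In parental cells 15 of 31 genes (48.4%) were higher at each time, against 52.7% of all genes at 24 h and 51.0% at 48 h.

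**Figure D5:**
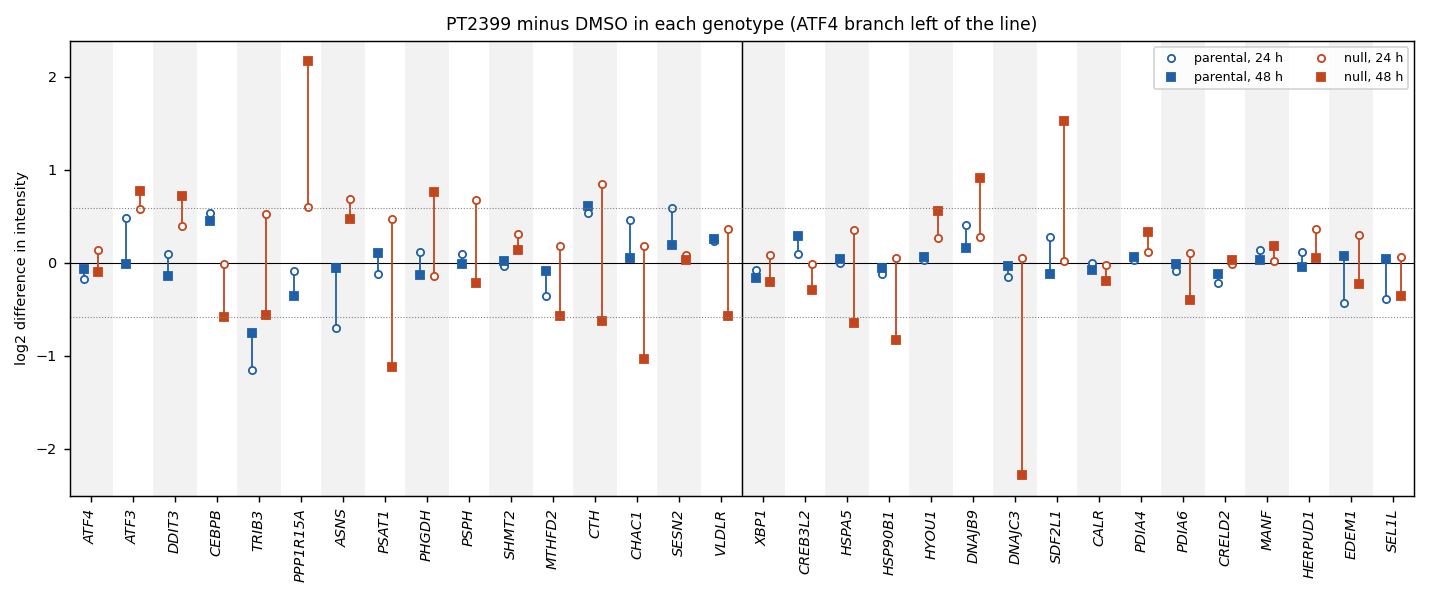
Log2 difference between PT2399 and DMSO for each gene in parental and in null cells, at 24 h and at 48 h. Most parental points lie near 0 apart from TRIB3 (-1.15 and -0.75); the null 48 h points, from the array that stood apart, spread from DNAJC3 at -2.28 to PPP1R15A at 2.16.

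The difference of the PT2399 effect between the cells (parental minus null) passed the adjusted limma threshold for 0 of the 31 genes and 0% of all genes. Because the cells were separate experiments, a response that needs HIF2a cannot be told apart here from one that differs between the experiments. At an unadjusted p under 0.05 there were 2, PPP1R15A and ASNS, where 1.74% of all genes were. By size, 0 genes were at least 1.5-fold higher at both times (1.81% of all genes) and 1, PPP1R15A, at least 1.5-fold lower (1.5% of all genes). Of the 89 further genes, 0 were higher and 6 lower by that fold. PPP1R15A differed by -0.69 and -2.52, a mean of -1.61 (SE 0.56; limma unadjusted p = 0.0307, adjusted p = 0.945). ASNS differed by -1.39 and -0.53, a mean of -0.96 (SE 0.37; limma unadjusted p = 0.0444, adjusted p = 0.945).

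In 4 of the 31 genes (CEBPB, PPP1R15A, ASNS and CREB3L2) both parental pairs were opposite in sign to both null pairs, as in 12.3% of all genes.

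Leaving out the null 48 h pair gave a mean of -0.82 (SE 0.25) for PPP1R15A, so that this gene's value depends on it, and -1.07 (SE 0.33) for ASNS. TRIB3 then stood at -1.47 (SE 0.27). In that fit the null cells have 1 array per treatment, so that their spread is assumed to be that of the parental pairs, and no p is given. In the null cells TRIB3 went from 511 to 734 at 24 h but from 736 to 498 at 48 h, the pair left out.

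Between 24 h and 48 h the parental cells differed little in these genes. None of the 31 was at least 1.5-fold higher or lower at 48 h in both the DMSO and the PT2399 pair, where 0.235% and 0.462% of all genes were. Of the 89 further genes, 0 were higher and 3 lower in parental cells. In null cells 1 gene of the 31 was higher, ATF3, and 0 were lower, where 0.878% and 3.58% of all genes were. Of the 89 further genes, 3 were higher and 1 lower in null cells. At an unadjusted limma p under 0.05 there were 4 of the 31 (ATF3, PSPH, DNAJB9 and PPP1R15A), where 7.95% of all genes were. ATF3 was higher by 0.60 in DMSO and 0.80 in PT2399, a mean of 0.70 (SE 0.25; limma unadjusted p = 0.0327, adjusted p = 0.608). PSPH was higher by 1.44 in DMSO (564 to 1534) and 0.55 in PT2399 (904 to 1319), a mean of 0.99 (SE 0.29; limma unadjusted p = 0.0155, adjusted p = 0.578). Its other single-gene probe set was higher by 0.94 in DMSO and lower in PT2399, at -0.30, and with the mean of the probe sets the PSPH difference was 0.66 and no longer had an unadjusted p under 0.05. DNAJB9 was higher by a mean of 0.74 (limma unadjusted p = 0.0323) and PPP1R15A by 1.06 (limma unadjusted p = 0.0397), the latter by 0.27 in DMSO and 1.84 on the array that stood apart. In the DMSO pair alone, without the array that stood apart, 3 genes were at least 1.5-fold higher at 48 h in null cells (ATF3, PSPH and DNAJC3), where 10.0% of all genes were.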

How the data were processed

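The authors' deposited table holds 1 linear intensity for each probe set of an Affymetrix whole-transcript array; per the labels' protocols, RNA was extracted with Trizol and turned into biotinylated sense-strand DNA. How the arrays were background-corrected, summarised and scaled, and whether the experiments shared a scaling, was not given in the sources used here. Log2 was taken before every comparison, and no further normalization was applied. Of 33252 probe sets, 19460 carried 1 gene (19429 matched to RefSeq by Entrez identifier, 31 kept an older name), 1754 several and 12038 none, and only the first kind was used.

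A gene's probe set was the one with the highest mean log2 value, and genes at or above percentile 40 of that mean (6.88 on the log2 scale, an intensity of 118) were tested. All 8 arrays were fitted in limma 3.58.1 (lmFit and eBayes) in R 4.3.3, with separate terms for level, time and PT2399 in each genotype (2 residual degrees of freedom) and Benjamini-Hochberg adjustment over 11050 genes. The number of arrays limits the precision.

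Values on every array are given for genes at least 1.5-fold changed one way in both pairs of a comparison. They are also given for those with an unadjusted p under 0.05 in a PT2399 comparison, and for ATF4, DDIT3, ASNS, HSPA5, XBP1 and HERPUD1. Further pathway genes are named by the same fold for null against parental cells in DMSO and for PT2399 in parental cells. For the difference between the cells and for time they are only counted. Other genes named with values were chosen after these were seen. The 32 genes, the lists and the tests were chosen with earlier results of these data known. The alternatives tried were an added offset, quantile normalization, centring, other filters, other folds, the mean of a gene's probe sets, a fit per genotype and leaving out each pair.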

Additional observations from a re-analysis of the deposited data

Results flagged for a closer look

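In 4 genes both parental pairs differed with PT2399 in one direction and both null pairs in the other, a pattern held by 12.3% of all genes. CEBPB was higher with PT2399 in parental cells (0.54 and 0.45) and lower in null cells (-0.01 and -0.59), a mean difference of 0.79. PPP1R15A was lower in parental cells (-0.09 and -0.36) and higher in null cells (0.60 and 2.16), a difference of -1.61. ASNS was lower in parental cells (-0.70 and -0.06) and higher in null cells (0.69 and 0.47), a difference of -0.96. CREB3L2 was higher in parental cells (0.10 and 0.29) and lower in null cells (-0.02 and -0.29), a difference of 0.35. By limma's test of the difference itself the adjusted p was 0.945 for each of the 4. For CEBPB at 24 h and CREB3L2 at 24 h the null value is close to 0, and for ASNS at 48 h the parental value is.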

How the results depend on the processing

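Of 296 recomputed values of single genes, 278 kept their call or moved by less than the spread between pairs, and 2 reversed, both ATF4 between null and parental DMSO cells, at -0.92 with the mean of its probe sets and -2.34 with the other probe set. Of 51 medians over the genes, 43 moved by less than the spread between pairs. Leaving out a pair changed the adjusted limma counts of 0 to between 0 and 12 genes for PT2399 in null cells and between 0 and 8 for the difference between the cells; the 12 and the 8 came without the null 24 h pair, where the array that stood apart decides the effect.

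For the counts at 1.5-fold, leaving out a pair or that array gave ranges for PT2399 of 1 to 1 higher and 1 to 2 lower in parental cells, 4 to 5 higher and 0 to 7 lower in null cells, and 0 to 8 higher and 5 to 6 lower for the difference. It gave 3 for 48 h against 24 h in null cells (higher), and 9 to 14 higher and 1 to 3 lower for null against parental. A pair left out leaves 1 pair to pass, which by construction lets more genes through. At the lower fold threshold tried the counts were 2 (parental higher), 4 (null higher), 1 and 2 (difference higher and lower), 3 (time in null cells) and 14 (null against parental higher). At 2-fold they were 0 for parental lower, null higher, difference lower and time, and 6 for null against parental higher, against 9. Quantile normalization gave 2 (null higher) and 1 and 2 (difference higher and lower); centring gave 2 (null higher), 2 (difference lower) and 3 (time); an offset of 32 gave 0 for null higher and for time; a filter at percentile 60 gave 0 for time; and the mean of probe sets gave 1 for null against parental lower. Quantile normalization moved the median of all genes by 0.10 for null against parental in DMSO, with 21 of the 31 genes then higher and 10 lower, against 22 and 9. Except where shown, the cause was not tested. Beyond the pairing by time that every fit holds, a block by replicate number could not be fitted, since the labels carry no such numbers and each condition has 1 array.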
